A study of Mus musculus with 30 samples.

Results

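Maf, Maff, Mafg, Mafk, Bach1, Nfe2l1 and Nfe2l2 encode basic leucine zipper transcription factors of the Maf and CNC families. The 7 genes were taken by their symbols from 56941 Ensembl genes counted in a mouse hypothalamic cell line exposed to cannabidiol (CBD), and all 7 were found. They were chosen by their counts with CBD against vehicle at 6 h and 24 h, as seen in earlier results of these data, so those differences are given here as a description. The tests among the doses leave vehicle out of the contrast, but their CBD libraries also entered the comparisons by which the members were chosen. Those between the times share their libraries with the same comparisons. Neither kind of test is therefore independent of that choice. Counts of calls against vehicle stand beside those over all genes and support nothing about the members.

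The cells were mHypoA-2/12, a clonal line from the adult mouse hypothalamus immortalized with the SV40 large T antigen. They received CBD at 0.325, 0.75, 1.5 or 3 µM, or the DMSO vehicle, for 6 h or 24 h. Each of the 10 groups had 3 libraries of 3′ mRNA-Seq, which reads the 3′ ends of polyadenylated transcripts. The labels do not say whether the libraries of a group came from separate cultures, so p-values measure the spread between these samples, which may be technical. Reads on genes ranged from 1839621 to 4420675 per library over the 30 libraries. Levels are in CPM, the reads of a gene per 1000000 reads on genes after TMM scaling of the libraries, and they are compared between groups for a gene, not between genes.

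Among the neuron markers, Tubb3 (28.6 to 64.9 CPM) and Map2 (9.07 to 35.7 CPM) were counted in every library. Snap25, Npy, Agrp, Lepr and Rbfox3 averaged below 1 CPM, and Syt1 averaged 2.01 CPM. Col1a1 and Vim, which mark mesenchymal cells, averaged 2063 and 2209 CPM, Col1a2 1588 CPM and Pdgfrb 180 CPM. Of the astrocyte markers, Gfap, Aqp4 and Aldh1l1 averaged below 1 CPM and S100b 4.26 CPM. The oligodendrocyte markers Mbp and Mog averaged below 1 CPM. Of the microglia markers, Aif1 and P2ry12 averaged below 1 CPM, Cx3cr1 14.6 CPM and Csf1r 11.4 CPM. In such bulk samples, fewer cells of a kind and less RNA per cell cannot be told apart.

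Maf proteins bind a palindromic DNA element through an extended basic region. Maf itself is a large Maf protein with its own activation domain, while the small Maf proteins Maff, Mafg and Mafk lack such a domain and act through their partners. With NRF2, the product of Nfe2l2, they bind the antioxidant response element (ARE) and activate genes of glutathione and thioredoxin metabolism. NRF1, the product of Nfe2l1, is processed from the endoplasmic reticulum and activates proteasome genes. BACH1 is a heme-sensing repressor that pairs with small Maf proteins at the same elements, Hmox1 being its best known target.

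Promoter sequences are shown for Maff, Mafg and Nfe2l2, the members that fell between the times with CBD, because AREs are where these proteins bind. RefSeq sequences on GRCm38.p6 (250 bases before to 50 bases after a start site) were on hand for 6 of the 7 members, with 12 start sites. Maf had no entry. The ARE core TGACNNNGC was searched on both strands. It was found at the first start site of 4 of the 6 members, Maff, Mafg, Mafk and Nfe2l2, and at no other start site. Of all 32851 promoter windows of 300 bases, 12.4% held it, a share of windows to set beside the 12 start sites, not the 6 members. The cAMP response element TGACGTCA was found at the second start site of Maff only among these members, and 1.79% of all windows held it. TGCTGAC, an arm of the Maf element, lay upstream of 3 neighbouring start sites of Nfe2l1 (4.67% of all windows). The windows of these 3 overlap, and the match is the same place on the genome in each. TGAGTCA, the AP-1 element, was at no start site of the members (5.2% of all windows). The TGAC that opens the ARE core also opens the cAMP response element. Such a match describes the letters and is not a binding site by itself. The stretches around the matches follow, in the direction of the gene, with the match in capitals. The first Maff stretch is chr15:79346464-79346562 (+ strand), from 157 to 59 bases before the start site.
Maff promoter 1: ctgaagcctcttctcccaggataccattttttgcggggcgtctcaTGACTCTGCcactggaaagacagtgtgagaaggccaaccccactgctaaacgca
The second Maff stretch is chr15:79347446-79347519 (+ strand), directly before the second start site and within an intron of the longer transcript.
Maff promoter 2: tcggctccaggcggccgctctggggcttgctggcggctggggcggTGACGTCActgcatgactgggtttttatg
The Mafg stretch is chr11:120633716-120633797 (− strand), where the match lies on the opposite strand and a non-coding gene, Gm17586, has an exon.
Mafg promoter 1: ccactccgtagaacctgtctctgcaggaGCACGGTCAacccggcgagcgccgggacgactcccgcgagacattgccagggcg
The Nfe2l2 stretch is chr2:75704850-75704913 (− strand), from 250 to 187 bases before the start site, and the non-coding gene E030042O20Rik overlaps it.
Nfe2l2 promoter 1: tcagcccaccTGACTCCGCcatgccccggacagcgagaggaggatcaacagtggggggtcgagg

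To see how the members stood in these cells without CBD, the vehicle libraries of both times were compared first. Maf (ENSMUSG00000055435, chromosome 8, 115682942 to 115707794, − strand, GRCm38), the large Maf factor, was at 96.8, 112 and 94.4 CPM in the vehicle libraries of 6 h and at 457, 267 and 308 CPM in those of 24 h. Every library of 24 h lay above every library of 6 h, a separation that was not counted over all genes. The rise was 3.40-fold in the means, with a log2 fold change of 1.77 (standard error 0.18, n = 3 against 3, edgeR quasi-likelihood FDR = 7.56e-09), and Maf ranked 6 of 12790 genes by p. The same vehicle libraries of 6 h serve the comparison with CBD at 6 h, by which the members were chosen. The rise in vehicle is therefore not independent of that choice. An antisense gene, Gm15655, overlaps an exon of Maf, and it had 0 reads in the 30 libraries.

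Maff (ENSMUSG00000042622, chromosome 15, 79346621 to 79359076, + strand, GRCm38), a small Maf protein induced by stress in many cells, went the opposite way. It was at 87.3, 144 and 109.4 CPM in vehicle at 6 h, and at 52.9, 73.9 and 62.9 CPM at 24 h. These ranges did not overlap, and Maff fell by 0.85 on the log2 scale (standard error 0.18, n = 3 against 3, edgeR FDR = 0.000819). How many of all genes separated in this way was not counted. Maf and Maff were the 2 members called between the vehicle groups out of 6 tested, while 26.7% of all genes were called. A difference between the times cannot be told apart from a difference between the harvests or in the age of the culture. Of the cell type markers, Map2 and Col1a2 rose and Cx3cr1 and Vim fell between the vehicle groups. The summed neuron markers were between 63.0 and 74.5 CPM at 6 h and between 76.9 and 89.2 CPM at 24 h, the mesenchymal markers between 5982 and 6981 CPM and between 5666 and 6441 CPM, and the microglia markers between 23.05 and 50.05 CPM and between 19.6 and 25.2 CPM, and their part in the changes of Maf and Maff was not tested.

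In the cells with CBD, the means of the 4 doses were compared between the times in the same way, with 12 libraries each. Maf was between 124 and 208 CPM at 6 h (median 159 CPM) and between 195 and 433 CPM at 24 h (median 337 CPM). It rose by a log2 fold change of 1.07 (standard error 0.09, edgeR FDR = 1.49e-12), and only the lowest library at 24 h, library A16 at 3 µM, lay within the range of 6 h. Maff was between 81.2 and 128 CPM at 6 h (median 98.0 CPM) and between 44.4 and 97.8 CPM at 24 h (median 61.0 CPM). It fell by 0.71 on the log2 scale (standard error 0.09, edgeR FDR = 4.74e-08), and its highest library at 24 h was again A16. With CBD, 5 of the 6 tested members were called between the times, beside 53.6% of all genes. Of these 2 were higher at 24 h and 3 were lower, beside 26% and 27.6% of all genes. The markers Map2, S100b and Pdgfrb also rose and Cx3cr1, Col1a1 and Vim fell.

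Nfe2l2 (ENSMUSG00000015839, chromosome 2, 75675513 to 75704641, − strand, GRCm38), the gene of NRF2, was between 136 and 206 CPM at 6 h with CBD (median 178 CPM) and between 111 and 160 CPM at 24 h (median 128 CPM). It fell by 0.44 on the log2 scale (standard error 0.07, n = 12 against 12, edgeR FDR = 5.58e-06). In vehicle its libraries overlapped between the times, from 135 to 189 CPM at 6 h and from 117 to 175 CPM at 24 h, with a log2 fold change of −0.15 (standard error 0.15, edgeR FDR = 0.509). The fall with CBD is not shown to differ from that in vehicle, since the difference between them was −0.29 (standard error 0.16, edgeR FDR = 0.804). That difference is made of the changes against vehicle by which the members were chosen, so it is a description.

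Mafg (ENSMUSG00000051510, chromosome 11, 120625117 to 120633600, − strand, GRCm38), the small Maf protein that most tissues express, moved less. With CBD it was between 75.9 and 100.1 CPM at 6 h and between 61.9 and 92.5 CPM at 24 h, a fall by 0.22 on the log2 scale (standard error 0.07, edgeR FDR = 0.00541). In vehicle it was at 89.8 ± 1.10 CPM (SD, n = 3) at 6 h and 83.2 ± 3.91 CPM (SD, n = 3) at 24 h, with a log2 fold change of −0.11 (edgeR FDR = 0.596). Its vehicle ranges did not overlap either, from 88.6 to 90.6 CPM at 6 h and from 79.9 to 87.5 CPM at 24 h. Again, such separations were not counted over all genes. The last exon of Mafg shares 124 bases with Sirt7 on the same strand, so reads there belong to either gene and its level is uncertain.

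Bach1 (ENSMUSG00000025612, chromosome 16, 87698945 to 87733346, + strand, GRCm38), the repressor of the set, had 21 to 97 reads per library. With CBD it was between 9.18 and 22.4 CPM at 6 h (median 13.4 CPM) and between 12.8 and 26.7 CPM at 24 h (median 18.2 CPM). It rose with a log2 fold change of 0.31 (standard error 0.13, edgeR FDR = 0.0427). In vehicle the log2 fold change was 0.14 (standard error 0.24, edgeR FDR = 0.729). Nfe2l1 (ENSMUSG00000038615, chromosome 11, 96817414 to 96829968, − strand, GRCm38), the gene of NRF1, passed no test between the times, with log2 fold changes of −0.08 in vehicle (standard error 0.15, edgeR FDR = 0.756) and 0.10 with CBD (standard error 0.07, edgeR FDR = 0.293).

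Mafk (ENSMUSG00000018143, chromosome 5, 139791513 to 139802653, + strand, GRCm38), the third small Maf protein, was near the limit of the libraries. It had 108 reads over the 30 libraries, from 0 to 10 in each, and did not pass the filter on low counts. In 5 libraries, all with CBD, it had 0 reads, and 3 reads in these would be 1.09 to 1.25 CPM. With CBD it was between 0 and 4.002 CPM at 6 h and between 0 and 2.19 CPM at 24 h, so the ranges overlapped. In an edgeR fit with no filter on low counts, Mafk was called between the times with CBD (log2 fold change −1.41, standard error 0.55, FDR = 0.0484, beside 25.5% of genes called), a fold that depends on the prior count at these levels. It was called in no other comparison of that fit. Its 3′ exon shares 169 bases with Tmem184a on the opposite strand, and the strand setting of the counting is not given in the sources used here.

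**Figure D1:**
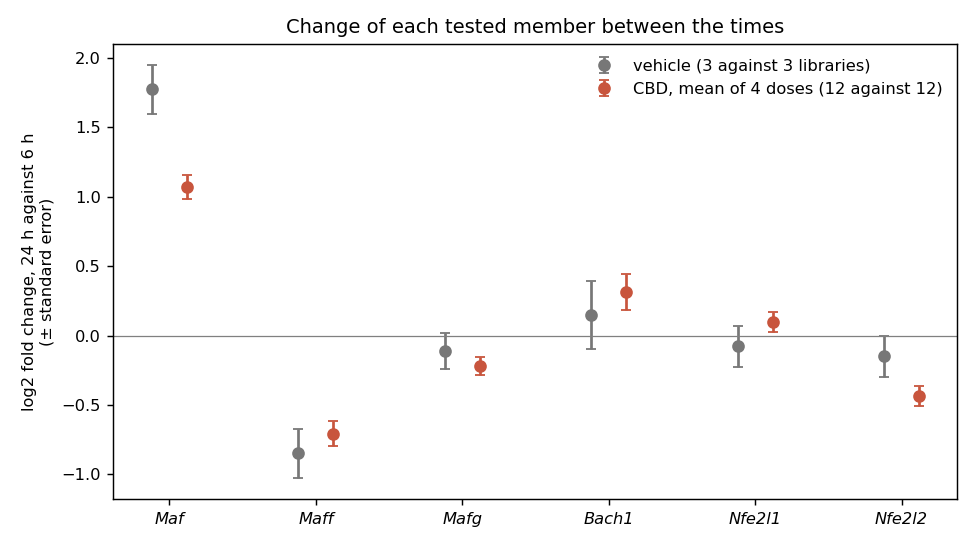
Log2 fold change of 24 h against 6 h (vertical axis, ± standard error) for the 6 tested members, in vehicle (grey, 3 against 3 libraries) and with CBD (red, mean of the 4 doses, 12 against 12 libraries). Maf stood at 1.77 and 1.07, Maff at −0.85 and −0.71, and the other 4 between −0.44 and 0.31.

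Next, the doses were compared with each other, which leaves the vehicle libraries out. At 6 h, Maf averaged 143 ± 19.7, 158 ± 9.86, 165 ± 37.5 and 173 ± 14.6 CPM (SD, n = 3 each) from the lowest to the highest dose. The ranges of neighbouring doses overlapped, and the slope per doubling of the dose was 0.09 on the log2 scale (standard error 0.05, edgeR FDR = 0.996). At 6 h edgeR called 0 of 6 members for any difference among the doses and 0 for the slope, as it called 0% of all genes in both. DESeq2 also called 0 members, and 0 of all genes, in both. With an unadjusted p under 0.05 there was 1 member in each, Bach1, beside 452 and 513 of 12012 genes. The slope of Bach1 was 0.22 (standard error 0.09, edgeR FDR = 0.996). Bach1 was at 10.98 ± 2.19, 12.0 ± 1.41, 20.6 ± 3.12 and 15.7 ± 2.07 CPM (SD, n = 3 each) over the doses, so that the 1.5 µM group stood highest.

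At 24 h, the highest dose stood apart from the lower doses for Maf and Maff. Maf was at 195, 312 and 256 CPM with 3 µM, while the 9 libraries of the lower doses lay between 330.5 and 433 CPM, above all 3. The share of all genes with such a separation was not counted. Compared with the lower doses, Maf fell by 0.51 on the log2 scale at 3 µM (standard error 0.14, edgeR FDR = 0.0305). Maff was at 97.8, 64.6 and 77.2 CPM with 3 µM and between 44.4 and 69.1 CPM at the lower doses. It rose with a log2 fold change of 0.55 (standard error 0.14, edgeR FDR = 0.0248), and its groups overlapped by 1 library of 0.325 µM. These were the 2 members called of 6, beside 10.5% of all genes (6.36% higher and 4.16% lower), and the 4 others had log2 differences from −0.16 to 0.27.

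The calls at 3 µM rested on few libraries. Without library A16 of 3 µM, the log2 difference was −0.36 for Maf (edgeR FDR = 0.26) and 0.36 for Maff (edgeR FDR = 0.336), and without library A18 the FDR of Maf was 0.105. Without library A17, Nfe2l2 was called as well (log2 difference 0.32, edgeR FDR = 0.0998). The share of reads outside genes moved with the same contrast, being 21.4 ± 0.49% at 3 µM (SD, n = 3) and 19.4% to 19.7% on average at the lower doses. It was not particular to 3 µM, as vehicle at 24 h, outside this contrast, was at 21.4 ± 0.71% (SD, n = 3). With this share as a covariate, the log2 differences were −0.67 (edgeR FDR = 0.323) and 0.58 (edgeR FDR = 0.424). Of the markers, Cx3cr1 was higher and Pdgfrb lower at 3 µM than at the lower doses. The summed microglia markers were between 22.2 and 32.4 CPM at 3 µM and between 14.6 and 28.1 CPM at the lower doses, the mesenchymal markers between 5417 and 6294 CPM and between 5388 and 6374 CPM, and their part in the result was not tested. The contrast had been chosen because the 3 µM group stood apart over all genes in earlier results of these data.

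Over all 4 doses at 24 h, edgeR called 0 of 6 members for any difference (1.93% of all genes) and 0 for the slope (3.13% of all genes). Beside 1753 and 2005 of 12118 genes, an unadjusted p under 0.05 was reached by 2 members in each, Maf and Maff. Their slopes per doubling were −0.13 (standard error 0.05, edgeR FDR = 0.166) and 0.15 (standard error 0.05, edgeR FDR = 0.156). DESeq2 called 1 member for any difference, Maff (FDR = 0.0668), and 0 for the slope, beside 526 and 506 genes. Without library A17 of 3 µM, both were called for any difference (edgeR FDR = 0.0292 for Maf and 0.0287 for Maff). Maff was also called without library A27 of 0.325 µM (edgeR FDR = 0.034), and Maf without vehicle library A28 (edgeR FDR = 0.0906), which enters these fits only through the scaling and the shared estimate of spread. The slopes were called without the same libraries, at −0.18 and 0.18 without A17 (edgeR FDR = 0.0251 and 0.0407), 0.21 for Maff without A27 (edgeR FDR = 0.0332) and −0.14 for Maf without A28 (edgeR FDR = 0.0959).

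**Figure D2:**
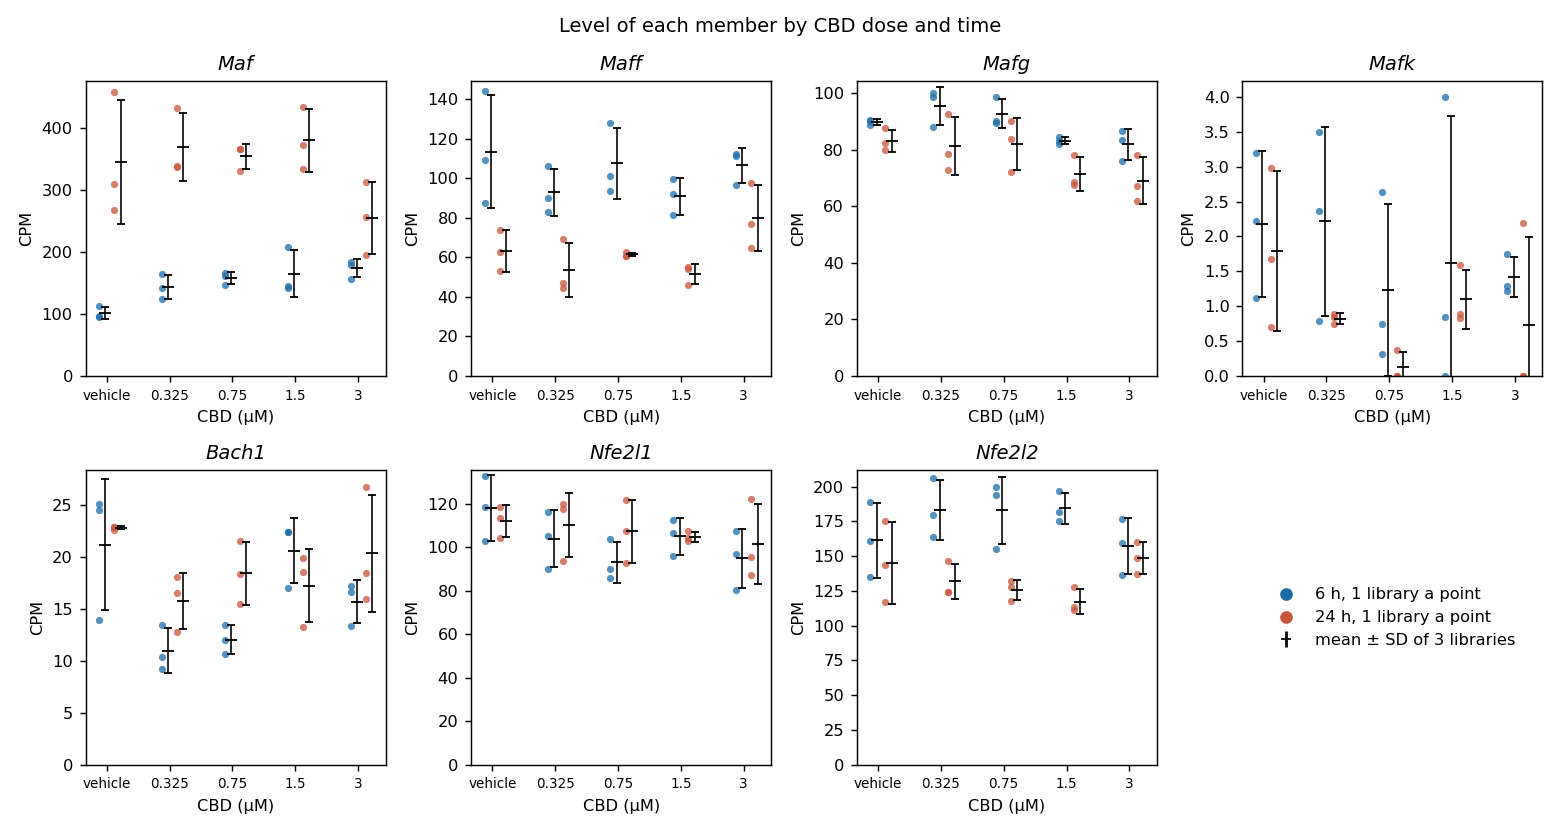
CPM of each member (vertical axes, from 0) by CBD dose in µM (horizontal axes), 1 point a library, blue at 6 h and red at 24 h, with the mean ± SD of 3 libraries beside the points (bars cut off at 0 for Mafk). The 24 h points of Maf lie above its vehicle points of 6 h at every dose, and those of 3 µM are the lowest among the CBD groups of 24 h.

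Against vehicle, Maf was the member with the change by which the set had been picked. At 6 h its 12 CBD libraries lay between 124 and 208 CPM (median 159 CPM), all above the 3 vehicle libraries, the highest of which was at 112 CPM. Such a separation upwards was seen in 0.733% of the tested genes. The log2 fold changes were 0.50, 0.65, 0.71 and 0.78 from the lowest to the highest dose (standard error 0.16 each), and 0.66 for the mean of the doses (standard error 0.13). In that mean edgeR and DESeq2 each called 1 of the 6 tested members, Maf (0.749% of all genes by edgeR, 132 genes by DESeq2). An unadjusted p under 0.05 was reached by 3 members, beside 1234 of 12012 genes. In the single doses edgeR called 0, 0, 0 and 1 member, Maf at 3 µM, beside 0.2%, 0.0749%, 0.0999% and 0.05% of all genes. DESeq2 called 0, 1, 1 and 1, beside 71, 48, 56 and 48 genes. In these doses 2, 3, 1 and 1 members had an unadjusted p under 0.05, beside 1057, 936, 950 and 872 of 12012 genes. The call at 3 µM was lost without library A1, A2, A4, A5, A6, A10, A11 or A15, and Maf was called at 1.5 µM without A13 or A14. These calls come from the values by which the set was chosen, and nothing is read from them.

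At 24 h the picture of Maf against vehicle was different. The vehicle libraries spread from 267 to 457 CPM, and 10 of the 12 CBD libraries lay within this range, the other 2 below it. The log2 fold change was −0.05 for the mean of the doses (standard error 0.13) and −0.43 at 3 µM (standard error 0.17). The difference of the change between the times was −0.70 on the log2 scale (standard error 0.19, edgeR FDR = 0.197), so it did not pass the threshold, and edgeR called 0 members for it (0.235% of all genes). The only member with an unadjusted p under 0.05 was Maf, and DESeq2 called 0. With no filter on low counts, the FDR for Maf was 0.00681. This difference is made of the changes against vehicle by which the set was chosen, so for the members it is a description.

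Bach1 was lower with CBD in most libraries. At 6 h vehicle was at 24.5, 25.1 and 13.9 CPM, and the log2 fold changes were −0.91, −0.78, −0.01 and −0.39 from the lowest to the highest dose (standard errors from 0.27 to 0.29). The third vehicle library, A3, lay among the CBD libraries, and 7 of the 12 CBD libraries lay below all of vehicle. Without A3 the log2 fold change for the mean of the doses was −0.78 in place of −0.52 (standard error 0.22), and edgeR then called Bach1 in that mean, at 0.325 µM and at 0.75 µM. At 24 h vehicle was at 22.6 to 22.9 CPM, 11 of the 12 CBD libraries lay below it, and the log2 fold change was −0.35 (standard error 0.18, edgeR FDR = 0.774). This vehicle range is narrow for counts of 97, 69 and 68 reads. The share of all genes with such counts of libraries below vehicle was not computed.

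The other members differed less from vehicle in their fitted values. At 6 h the log2 fold changes of the mean of the doses were −0.26 for Nfe2l1 (standard error 0.12), −0.20 for Maff (standard error 0.14), −0.03 for Mafg (standard error 0.11) and 0.13 for Nfe2l2 (standard error 0.12). Nfe2l1 was at 118 ± 15.02 CPM in vehicle (SD, n = 3) and at 99.3 ± 11.2 CPM with CBD (SD, n = 12). Of its CBD libraries, 6 lay below all of vehicle, and the share of all genes with such a count was not computed. At 24 h all 6 tested members had a negative log2 fold change for the mean of the doses, from −0.35 to −0.05, beside a median of −0.01 over all genes. edgeR and DESeq2 called 0 of them at 24 h (0.107% of all genes by edgeR, 29 genes by DESeq2). An unadjusted p under 0.05 was reached by 0 of them, beside 815 of 12118 genes. In the single doses of 24 h edgeR also called 0, beside 0.066%, 0.0825%, 0.0413% and 0.00825% of all genes from the lowest to the highest dose. DESeq2 called 0 there too, beside 17, 40, 19 and 13 genes. At these doses 1, 0, 1 and 1 members had an unadjusted p under 0.05, beside 1009, 924, 889 and 1110 of 12118 genes. Without library A17, edgeR called Maf at 3 µM (log2 fold change −0.61). The 4 doses of a time share their vehicle libraries, so their changes are not independent of each other.

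**Figure D3:**
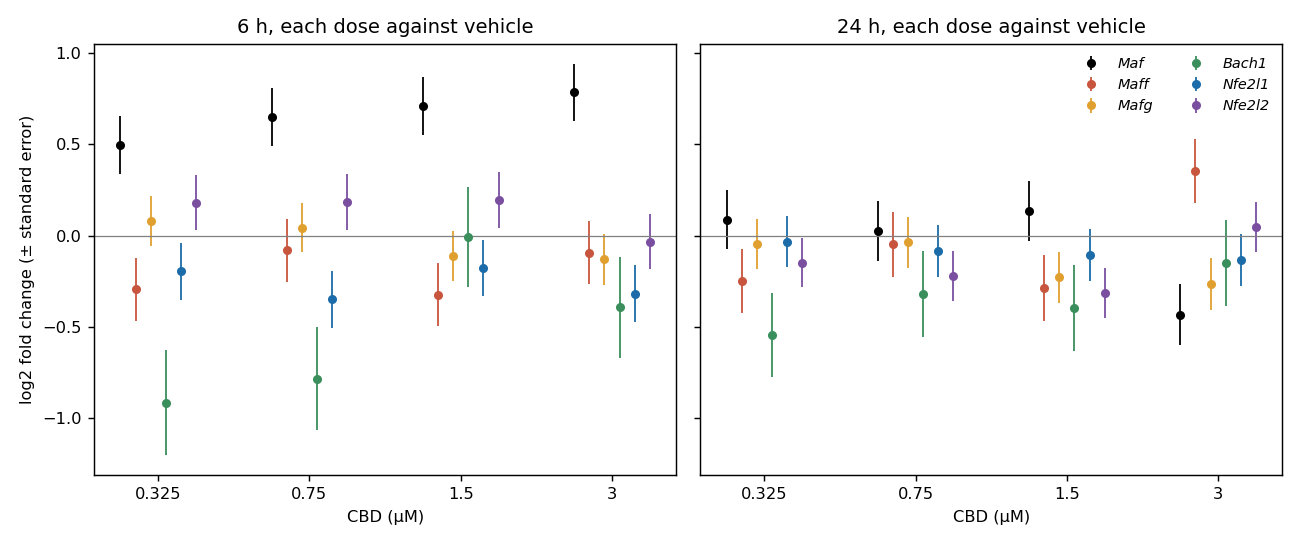
Log2 fold change of each CBD dose against vehicle (vertical axis, ± standard error) at 6 h (left) and 24 h (right) for the 6 tested members, by dose in µM. At 6 h Maf lies between 0.50 and 0.78 and Bach1 between −0.91 and −0.01, and at 24 h and 3 µM Maf lies at −0.43 and Maff at 0.35.

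Over the 10 groups, Maf had the widest order of levels among the tested members. Its mean was lowest in vehicle at 6 h (101 CPM) and highest with 1.5 µM at 24 h (379 CPM), a 3.75-fold span. In that order the 4 CBD groups of 6 h came next above vehicle at 6 h, then 3 µM at 24 h, and then vehicle and the lower doses of 24 h. Neighbouring groups were separate in 2 of 9 places only, between vehicle and 0.325 µM at 6 h and between 3 µM at 6 h and 3 µM at 24 h. Such gaps were not counted over all genes. The order of Maff ran from 51.7 CPM with 1.5 µM at 24 h to 114 CPM in vehicle at 6 h (2.20-fold), with all 5 groups of 24 h below all 5 of 6 h in their means and no neighbours separate. The order of Nfe2l2 put the means of the 24 h groups below those of 6 h as well, from 117 CPM with 1.5 µM at 24 h to 184 CPM with 1.5 µM at 6 h. The spans of Mafg, Nfe2l1 and Bach1 were 1.38-fold, 1.27-fold and 2.08-fold, with 1 pair of neighbours separate for Mafg (vehicle and 1.5 µM at 6 h) and none for the others.

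Across the 30 libraries, Maf and Maff went in opposite directions, with Pearson's r of −0.87 and Spearman's rho of −0.83 for log2 CPM. After the mean of each time was subtracted, r was −0.53. Maff and Nfe2l2 went together, with r of 0.76 and 0.44 after subtracting the means of the times. The 2 times form separate clusters of libraries, and all libraries share the normalization, so these values describe the set and carry no test.

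**Figure D4:**
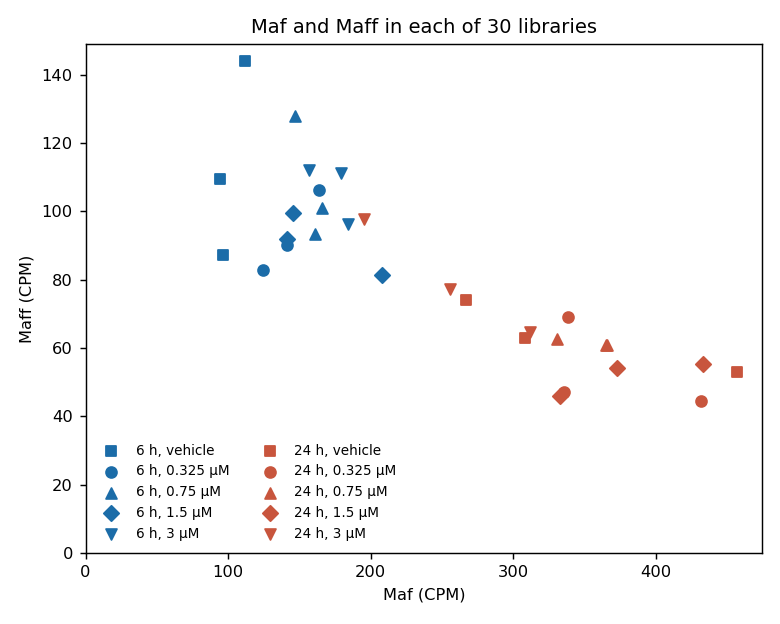
CPM of Maf (horizontal axis) and Maff (vertical axis) in each of the 30 libraries, blue at 6 h and red at 24 h, with the symbol giving the dose. The libraries of 6 h lie at the upper left and those of 24 h at the lower right, and the 3 µM library A16 at 195 and 97.8 CPM lies next to those of 6 h.

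The genes with the most similar course to a member were read from 8686 genes with at least 10 CPM on average over the 30 libraries. For Maf these were Mbtps1, Tmem98 and H2afv, with r from 0.948 to 0.951, and from 0.738 to 0.757 after subtracting the means of the times. For Maff they were Etf1, Hoxc6 and Nap1l1, with r from 0.931 to 0.938. For Nfe2l2 they were mt-Nd2, Hdlbp and Ccnd2, with r from 0.883 to 0.895. The nearest genes were less close for Bach1 (Cenpx, 0.721), Mafg (Cntrl, 0.699) and Nfe2l1 (Ppp1ca, 0.652). No other member was among the 3 nearest genes of a member.

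The wider pathway was followed with 4 lists, drawn up with earlier results of these data known. Among other relatives, Mafa and Bach2 were tested, at 2.98 and 6.998 CPM on average, with log2 fold changes of 0.51 and −0.07 for CBD against vehicle at 6 h (edgeR FDR = 0.806 and 0.971). Nrl, Nfe2 and Nfe2l3 averaged below 1 CPM. Of 14 regulators of NRF1, NRF2 and BACH1, 1 fell with CBD at 6 h, beside 0.508% of all genes. It was Sqstm1, the autophagy receptor p62 that binds KEAP1 (log2 fold change −0.66, standard error 0.11, edgeR FDR = 0.00476). The median over the regulators was −0.05 and that over all genes −0.02. Keap1 and Cul3, which mark NRF2 for degradation, had log2 fold changes of −0.04 and −0.19 (edgeR FDR = 0.941 and 0.779), and were named after their values were seen.

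Of 25 target genes of NRF2, 24 were tested, and with CBD at 6 h 1 rose and 1 fell, beside 0.241% and 0.508% of all genes. Hmox1, the heme oxygenase that BACH1 represses, fell by 1.19 on the log2 scale (standard error 0.19, edgeR FDR = 0.00367). Gstm1, a glutathione transferase, rose with a log2 fold change of 0.55 (standard error 0.13, edgeR FDR = 0.0608). The count was 1 without library A1, A2, A4 or A5, and 5 without the vehicle library A3. The median of the list was −0.07, beside −0.02 over all genes. The same list at 24 h had 0 calls by edgeR and a median of −0.04. The 31 proteasome genes, targets of NRF1, had 0 calls in either direction at 6 h and 0 of 30 tested at 24 h, with medians of −0.09 and 0.08. Without the vehicle library A3, 2 were called at 6 h. Among those with the highest mean CPM, Psmb4 had log2 fold changes of 0.24 and 0.19, Psma7 of 0.05 and 0.09 and Psmd13 of −0.15 and 0.01 at 6 h and 24 h.

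Between the times, more target genes were called than for CBD against vehicle. The same held over all genes, with 26.7% called between the times in vehicle and 53.6% with CBD. Against vehicle, 0.749% of all genes were called at 6 h and 0.107% at 24 h. In vehicle, 9 NRF2 targets fell and 4 rose from 6 h to 24 h, beside 14.2% and 12.5% of all genes, with a median log2 fold change of −0.25 against −0.03 over all genes. With CBD, 13 fell and 5 rose, beside 27.6% and 26% of all genes, with a median of −0.19 against −0.01. Gclc, an enzyme of glutathione synthesis, fell by 1.03 in vehicle and by 0.93 with CBD, and Txnrd1, a thioredoxin reductase, fell by 0.78 and by 0.57 on the log2 scale (edgeR FDR of 0.00428 or less for each). Me1, which makes NADPH, rose with log2 fold changes of 0.73 and 0.74. These 3 were named after their values were seen. Of the 31 proteasome genes, 10 fell and 0 rose in vehicle (median −0.30), beside 14.2% and 12.5% of all genes. With CBD, 15 of them fell and 1 rose (median −0.16), beside 27.6% and 26% of all genes. Of the 14 regulators, 3 fell and 0 rose in vehicle, and 3 fell and 3 rose with CBD, beside the same shares.

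**Figure D5:**
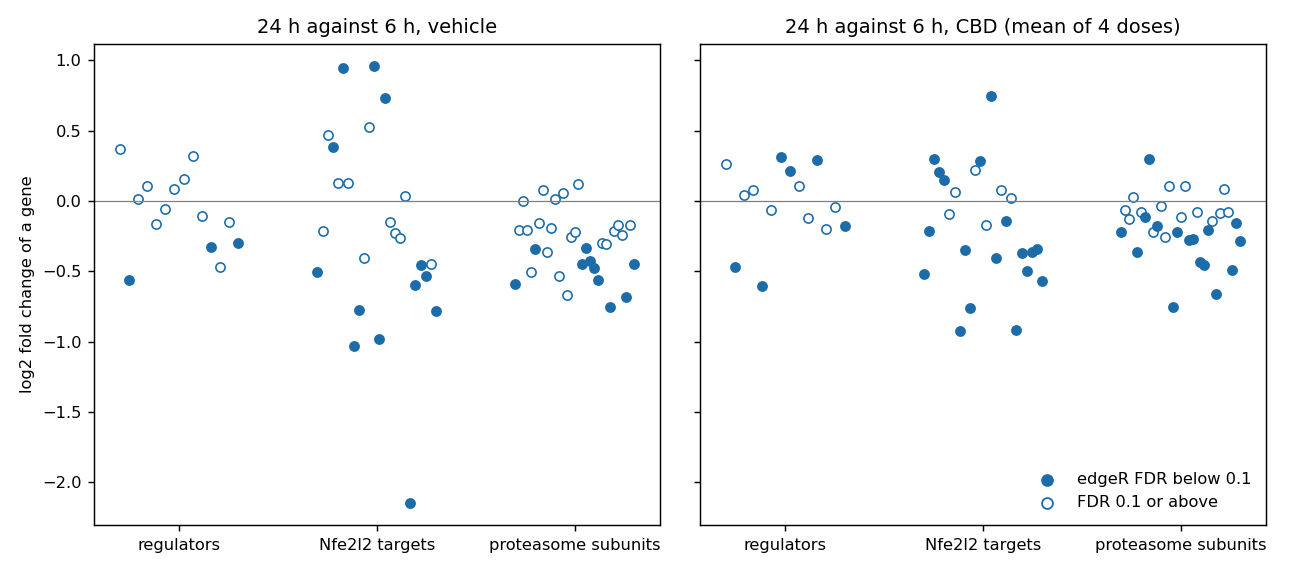
Log2 fold change of 24 h against 6 h (vertical axis) for each gene of 3 lists, in vehicle (left) and with CBD (right, mean of the 4 doses), with filled points for an edgeR FDR below 0.1. Of the 24 tested NRF2 targets 13 were called in vehicle and 18 with CBD, and of the 31 proteasome genes 10 and 16, most of them below 0. Over all genes 26.7% and 53.6% were called.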

How the data were processed

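The authors trimmed the reads with Flexbar, mapped them to GRCm39 with STAR 2.7.5c and counted them per Ensembl gene with HTSeq-count 1.99.2. The deposited values are raw counts per gene and library, not normalized. Summary lines of the tables were used only for the share of reads outside genes. Symbols and positions came from GENCODE M21, whose assembly, GRCm38, precedes the one the reads were mapped to.

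Counts were tested in R 4.3.3 with edgeR 4.0.16 (filterByExpr, TMM, quasi-likelihood F-test), for 12012 genes at 6 h and 12118 genes at 24 h with 15 libraries each, and for 12790 genes in all 30 libraries. The Benjamini-Hochberg false discovery rate (FDR) over every tested gene was held against a threshold of 0.1. The standard error is the log2 fold change divided by the square root of F. Log2 CPM had a prior count of 2. DESeq2 1.42.0, other normalization and filters, a covariate and leaving out each library were the alternatives. The steps were tested on simulated data.

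The members and lists were chosen with earlier results of these data known. Named are all members, list genes past the threshold for the mean of the doses against vehicle or, in lists without one, the 3 with the highest mean CPM, and the 3 genes most like a member. Keap1, Cul3, Gclc, Txnrd1, Me1 and the cell type markers are named beside this rule. Libraries of a group differed by more than counting noise (chi-square per gene from 2.13 to 10.7), a spread that may be technical. Each library was treated as a sample. Reads from 1839621 to 4420675 per library limit genes such as Mafk, and the floor of 3 reads covers counting error only. Some list genes are not reported here.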

Additional observations from a re-analysis of the deposited data

How the results depend on the processing

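The counts of members called were 0 or 1 in most comparisons, so a single gene moved them by more than 1.5 times. With DESeq2 the count was 1 in place of 0 at 0.75 µM and at 1.5 µM against vehicle at 6 h and for any difference among the doses at 24 h. Without filtering low counts it was 1 at 0.75 µM and at 1.5 µM against vehicle at 6 h, 1 for the slope at 24 h, 1 for the change with CBD at 24 h against that at 6 h, and 2 for any difference among the doses at 24 h. With the covariate (reads outside genes) it was 1 at 0.75 µM and at 1.5 µM against vehicle at 6 h, and 0 in place of 2 for 3 µM against the lower doses at 24 h, where 30 genes in place of 1275 were called. With only the 6 libraries compared it was 0 in place of 1 at 3 µM against vehicle at 6 h. The cause was not tested. Over all genes, the number called also moved by more than 1.5 times. For the mean of the doses at 6 h it was 90 by edgeR, 263 with no filter and 329 with the covariate, and at 24 h 13, 46 and 0, with 29 by DESeq2. For any difference among the doses at 24 h it was 234, 783 and 1, with 526 by DESeq2, and for the slope at 24 h 379, 657 and 0. At 6 h the doses differed in 0, 15 and 1 genes, and the slope was called in 0 genes, or in 1 with no filter. For the change with CBD at 24 h against that at 6 h it was 30, with 87 with no filter and 49 by DESeq2. For single doses against vehicle it was 6 to 24 at 6 h and 1 to 10 at 24 h, and from 0 to 322 over these alternatives. RLE normalization and a minimum of 10 counts in every library moved no count of members, while with the minimum 6 genes in place of 10 were called at 0.75 µM at 24 h.

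Over the fits that leave out each library, the count ranged from 0 to 1 at each dose against vehicle at 6 h and at 3 µM at 24 h, from 1 to 2 for the mean of the doses at 6 h, from 0 to 3 for 3 µM against the lower doses at 24 h, and from 0 to 2 for any difference and for the slope at 24 h. It stayed at 2 between the times in vehicle and at 5 with CBD. The rise of Maf and the fall of Maff between the times passed the threshold in every fit made, with log2 fold changes in vehicle from 1.53 to 1.93 and from −0.99 to −0.64 over the libraries left out. Bach1 between the times with CBD had an FDR of 0.101 with no filter on low counts, where Mafk was called in its place (FDR = 0.0484). The 3 genes most like Maf were replaced by others with Spearman's rho and after subtracting the means of the times (0 of 3 shared). No paired analysis was possible because in the labels libraries of different groups share no numbers. Depth limits Mafk, which was tested only with no filter, and leaves Bach1 with wide errors.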
